A study of Mus musculus with 20 samples.

Results

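Motile cilium genes were followed in RNA of the mouse hypothalamus as a group of 64 protein-coding genes. The group holds the genes whose symbol starts with Dnah, Cfap, Rsph, Tekt or Dnaaf, together with Spag6l, Spag16, Spag17 and Foxj1, at a mean of at least 0.5 CPM (counts per 1000000 counts of the library) over the 20 libraries. The tables hold 53801 genes, of which 67 carry such a symbol. The lowest members were Dnaaf3 at 0.582 CPM and Tekt2 at 0.721 CPM, and the genes left out were Rsph6a at 0.388 CPM, Tekt3 at 0.21 CPM and Dnaaf2 with 0 CPM. All 64 members were among the 22181 genes that passed the filter on low counts and were tested.

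The KO mice lack both Magel2 and Ndn, imprinted genes of the Prader-Willi syndrome region, and the WT mice are C57BL/6J. Mice were kept in a cycle of 12 h light and 12 h dark and were killed 6 h (day) or 18 h (night) after lights came on, which gives 4 groups of 5 libraries each: KO_day, WT_day, KO_night and WT_night. No source states the age or sex of the mice, whether libraries come from separate animals, or how the deletion was made. The p-values therefore measure the spread between these libraries, which may in part be technical.

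Multiciliated ependymal cells line the brain ventricles, and their beating cilia move the cerebrospinal fluid. The cilium's core, the axoneme, is a ring of doublet microtubules around a central pair. Outer and inner dynein arms, motors built on very large heavy chains, slide the doublets against each other. Radial spokes and the central apparatus set the pattern of this motion, tektins and other proteins line the doublet wall, and assembly factors fold the dynein arms in the cytoplasm before they enter the cilium. Foxj1 is the forkhead transcription factor that switches on motile cilium genes, and RFX factors, which bind the X-box motif, act with it.

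Because RFX and forkhead factors control this class of genes, the 250 bases before the RefSeq start were searched in the 51 members with a promoter entry (build GRCm38.p6). The X-box was searched as the paired motif arms GTTNC and GNAAC, 3 to 5 bases apart, a pattern that reads the same on both strands. It was found in 12 of 51 members (23.5%), against 551 of 27025 promoters of all genes (2.04%). It was present in 6 of the 14 entries for members that fell in KO_night, described below, and in 6 of the other 37. Of the first 6, 3 are Dnah7a, Dnah7b and Dnah7c, near-identical copies that share the same site, so 1 sequence is counted 3 times there. The single arm (GTTNCC or GGNAAC on either strand, which overlaps many of the pairs) was in 34 of 51 member windows (66.7%) and in 39.5% of all windows. The forkhead motif TGTTTAC, searched on both strands, was in 3 of 51 member windows (5.88%), in 0 of the 14 of members that fell, and in 3.09% of all windows. A match describes letters only and is not evidence that a factor binds there.

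The matches of 5 members that fell in KO_night and of 2 that did not are printed to show the paired sites and the bases around them. Each is read 5′ to 3′ on the gene's strand, with the motif from its first arm to its second in capitals.
Cfap44 (chr16:44394764-44394793, plus strand): ggagggacGTTGCTATGGCAACcgcagtaa
Dnah7a (chr1:53706821-53706849, minus strand): gccagtttGTTGCTTAGCAACgaatcgac
Dnah7b (chr1:46066821-46066849, plus strand): gccagtttGTTGCTTAGCAACgaatcgac
Dnah7c (chr1:46425441-46425469, plus strand): tccagtttGTTGCTTAGCAACgaatcgac
Spag17 (chr3:99885200-99885230, plus strand): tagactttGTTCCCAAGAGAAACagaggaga
Dnah9, which did not fall (chr11:66168613-66168641, minus strand): ttccaccaGTTTCCCAGCAACaacgacgc
Tekt2, which did not fall (chr4:126325697-126325725, minus strand): agggggcgGTTGCTCGGCAACcagagccg
In GENCODE M21 the Dnah7b match lies over an annotated exon of Dnah7b, and the other matches printed lie outside the gene, upstream of it. Spag16 had the lowest adjusted p of any member for night against day in KO, so its whole window (chr1:69826720-69826969, plus strand) is printed with the paired site in capitals, starting 103 bases before the start.
Spag16 promoter: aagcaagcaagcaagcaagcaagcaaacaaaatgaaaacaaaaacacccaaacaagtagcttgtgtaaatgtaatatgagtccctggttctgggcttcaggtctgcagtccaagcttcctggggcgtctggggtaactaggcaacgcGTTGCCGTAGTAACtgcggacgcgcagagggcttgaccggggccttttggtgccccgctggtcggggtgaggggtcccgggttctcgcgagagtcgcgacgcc

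Library totals ran from 32066289 to 48697647 counts, and levels below are CPM after TMM scaling (edgeR's correction for differences in composition), with the SD over the 5 libraries of a group. Ndn stood at 0.248 to 1.01 CPM in the KO libraries and at 239 to 346 CPM in 9 WT libraries, and Magel2 at 0 to 0.182 CPM in KO and 15.6 to 19.5 CPM in the same 9. The library labelled WT_day 3 held both deleted genes at a low level (Ndn 31.0 CPM, 11.3% of the other WT mean, and Magel2 2.15 CPM, 12.4%). In 6 libraries (KO_day 1 and 2, KO_night 1, 2 and 3, and WT_night 1) the title and the time field of the labels disagree on day or night. Groups follow the titles here, and the counts of members, pathway genes and markers past the threshold are also given with the time field and with the agreeing libraries alone.

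Of the 12 ependyma markers, none had 0 counts, and their summed level was 118 to 137 CPM in KO_night, 114 to 129 CPM in WT_night, 119 to 135 CPM in KO_day and 119 to 139 CPM in WT_day. These ranges overlapped in each pair of groups. The 12 choroid plexus markers, of the other multiciliated cell type near the ventricles, summed to 30.4 to 35.7 CPM in KO_night and 33.9 to 39.6 CPM in WT_night. In whole tissue, fewer ciliated cells and less RNA per cell cannot be told apart.

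The genotype effect on motile cilium genes differed in count between night and day. In KO_night against WT_night, 17 of 64 members fell (26.6%) and 0 rose, while 6.77% of all genes tested fell (1501 of 22181) and 5.18% rose. In KO_day against WT_day, 0 of 64 members passed in either direction at a Benjamini-Hochberg adjusted p under 0.05 in edgeR, against 0.113% of all genes. At an unadjusted p under 0.05 the day comparison held 3 members and 2133 of all genes tested. DESeq2 called 1 member by day, Dnah1, and 184 genes. The median log2 change of the members was -0.083 at night, against 0.0051 for all genes, and 0.0014 by day, against -0.0055 for all genes. The interaction of genotype and time, which tests whether the night and day effects differ, called 0 members and 0% of all genes in edgeR. At an unadjusted p under 0.05 it held 21 members and 4910 of all genes tested, and DESeq2 called 9 members and 1189 genes.

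**Figure D1:**
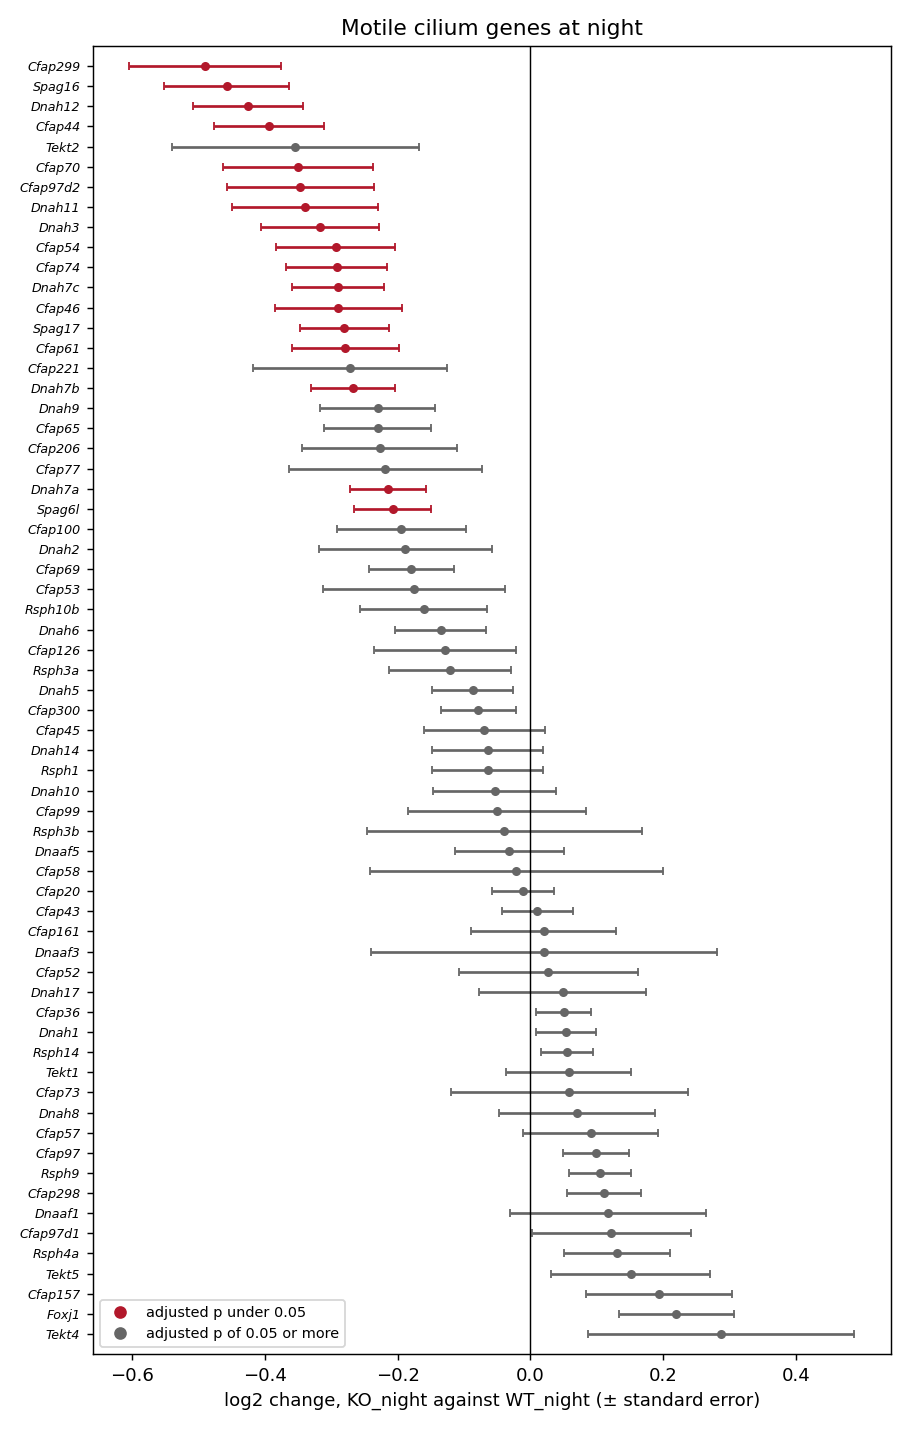
Log2 change in KO_night against WT_night for each of the 64 members, with its standard error (5 libraries per group). The 17 members in red fell at an adjusted p under 0.05, and the unpassed changes run on both sides of 0, with Tekt4 highest at 0.29 and Foxj1 next at 0.22.

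The transcription factor Foxj1 was not among the members that fell. Foxj1 (ENSMUSG00000034227, chromosome 11, 116330704 to 116335399 in GRCm38) stood at 16.002, 14.6, 12.5, 15.2 and 13.7 CPM in KO_night libraries 1 to 5, against 10.4, 12.0, 11.3, 14.4 and 13.9 CPM in WT_night libraries 1 to 5. Its mean was 14.4 ± 1.35 CPM in KO_night and 12.4 ± 1.70 CPM in WT_night, and the libraries overlapped. The log2 change of 0.22 ± 0.087 (SE) did not pass (adjusted p = 0.0929), and it was -0.0027 with groups taken from the time field. By day the level was 12.1 ± 1.10 CPM in KO_day and 12.1 ± 0.985 CPM in WT_day.

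The central apparatus genes were the class with the most calls. At night 6 of 9 fell, and all 9 had a lower mean in KO_night, with a median log2 change of -0.28. The classes differ in gene span, and these 9 genes span 33.5 kb (Cfap65) to 898 kb (Spag16). With the trend with gene length removed, as described below, Cfap74 alone of this class passed. The part of span in the difference between classes was not tested. A lower mean in KO_night was also found in 9 of 10 inner-arm heavy chains and in 49.0% of all genes tested. Spag16, Spag17 and Spag6l encode central apparatus proteins, and the roles of Cfap46, Cfap54 and Cfap74 in it were worked out largely in the alga Chlamydomonas. Cfap65 (-0.23 ± 0.081, adjusted p = 0.0618), Cfap69 (-0.18 ± 0.064, adjusted p = 0.0642) and Cfap221 (-0.27 ± 0.15, adjusted p = 0.216) did not pass.

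Spag16 (ENSMUSG00000053153, chromosome 1, 69826970 to 70725132 in GRCm38) stood at 24.1, 21.6, 23.1, 27.3 and 23.5 CPM in KO_night, against 33.2, 33.2, 41.3, 28.4 and 27.9 CPM in WT_night. Every KO_night library lay below every WT_night library, and the log2 change was -0.46 ± 0.094 (adjusted p = 0.0124). By day it stood at 27.3, 36.1, 39.4, 34.1 and 34.2 CPM in KO_day, against 29.4, 32.99, 29.3, 29.4 and 28.5 CPM in WT_day. There the order was mixed, with 4 KO_day libraries above all WT_day libraries and 1 below them, and the change did not pass (0.19 ± 0.094, adjusted p = 0.509). Spag16 was also the one member that passed for night against day in KO (-0.52 ± 0.094, adjusted p = 0.0328), a call made for 0.0721% of all genes. That call was lost with the time field (-0.041, adjusted p = 0.956) and with the agreeing libraries alone (-0.50, adjusted p = 0.146). Its interaction of genotype and time was -0.65 ± 0.13 and did not pass in edgeR (adjusted p = 0.0552), and it passed in DESeq2 and without the filter on low counts.

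Spag17 (ENSMUSG00000027867) stood at 10.1, 9.70, 10.6, 10.8 and 10.6 CPM in KO_night, against 11.1, 13.5, 12.7, 12.7 and 12.9 CPM in WT_night, with a log2 change of -0.28 ± 0.067 (adjusted p = 0.0187). Spag6l (ENSMUSG00000022783) stood at 13.2, 12.6, 13.1, 14.3 and 14.8 CPM in KO_night, against 15.1, 16.3, 15.4, 15.1 and 16.6 CPM in WT_night, with a change of -0.21 ± 0.058 (adjusted p = 0.0271). In both, no KO_night library reached a WT_night library. Cfap54 fell by 0.29 on the log2 scale (34.8 ± 4.67 CPM in KO_night, 42.6 ± 5.25 CPM in WT_night), and Cfap74 fell by 0.29 (9.04 ± 0.797 CPM in KO_night, 11.1 ± 0.993 CPM in WT_night). Cfap46 fell by 0.29 as well, at the edge of the threshold (adjusted p = 0.0493), with 19.9 to 30.2 CPM in KO_night and 24.6 to 33.5 CPM in WT_night. These 3 genes had overlapping groups.

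Of the 10 heavy chains placed in the inner arms, 5 fell at night and none rose. Dnah12 (ENSMUSG00000021879, chromosome 14, 26693274 to 26891703) had the lowest adjusted p of all members, with 15.5, 12.3, 13.7, 16.2 and 14.9 CPM in KO_night against 19.3, 21.0, 21.3, 17.8 and 18.1 CPM in WT_night. The groups did not overlap, and the log2 change was -0.42 ± 0.083 (adjusted p = 0.00964). By day the level was 16.7 ± 1.496 CPM in KO_day and 17.8 ± 1.99 CPM in WT_day, a difference within the spread of the libraries (adjusted p = 0.786).

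Dnah3 (ENSMUSG00000052273, chromosome 7, 119922671 to 120095280) had changes of like size at both times. At night it stood at 9.88, 8.26, 8.78, 10.1 and 8.03 CPM in KO_night, against 11.6, 12.5, 12.1, 9.97 and 10.05 CPM in WT_night (-0.32 ± 0.089, adjusted p = 0.0276). By day it stood at 8.95, 9.68, 9.16, 9.62 and 9.86 CPM in KO_day, against 11.4, 14.3, 10.7, 11.3 and 10.3 CPM in WT_day. The day libraries did not overlap, but the change did not pass over all genes (-0.29 ± 0.089, adjusted p = 0.216). The end of Dnah3 lies over Lyrm1 on the other strand, and Lyrm1 fell at night as well (-0.20, adjusted p = 0.0304), so the reads of this pair cannot be told apart.

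Dnah7a, Dnah7b and Dnah7c are near-identical copies on chromosome 1, and the way the counting split their reads makes each value uncertain. Their log2 changes at night were -0.21 ± 0.057, -0.27 ± 0.063 and -0.29 ± 0.070, with adjusted p-values of 0.0245, 0.0181 and 0.0191. With the trend of log2 counts with gene length removed, as described below, they were -0.0017, -0.048 and -0.053, and none passed (adjusted p = 0.991, 0.528 and 0.693). Dnah7b, the copy with the highest level, stood at 36.3, 31.7, 34.7, 34.01 and 35.3 CPM in KO_night, against 43.6, 42.7, 46.5, 35.5 and 38.9 CPM in WT_night, where its ranges overlapped. Dnah7a and Dnah7c did not overlap between the groups. The other inner-arm chains, Dnah2, Dnah6, Dnah14, Dnah10 and Dnah1, did not pass.

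Dnah1 (ENSMUSG00000019027), the inner-arm chain with the highest level per kb, had a higher mean in KO at both times without passing in edgeR. It stood at 44.2, 45.2, 41.9, 47.6 and 44.4 CPM in KO_day, against 40.0, 40.3, 41.9, 38.3 and 38.5 CPM in WT_day (0.17 ± 0.045, adjusted p = 0.145). Only the lowest KO_day library overlapped with the highest WT_day library. At night the change was 0.054 ± 0.045 (adjusted p = 0.44).

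Of the 5 outer-arm heavy chains, Dnah11 alone fell, with 13.7 ± 2.77 CPM in KO_night and 17.4 ± 1.72 CPM in WT_night (-0.34 ± 0.11, adjusted p = 0.0464). The outer-arm chains with the highest levels did not pass, Dnah9 with 33.5 ± 4.24 CPM in KO_night and 39.3 ± 5.25 CPM in WT_night (-0.23 ± 0.086, adjusted p = 0.077), and Dnah5 with 20.2 ± 1.71 CPM in KO_night and 21.4 ± 0.857 CPM in WT_night (adjusted p = 0.348). Dnah17 and Dnah8 had changes of 0.049 and 0.070.

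Cfap44 (ENSMUSG00000071550, chromosome 16, 44394796 to 44482428), part of the tether that holds an inner dynein to the doublet, was the one tether or anchor gene of 5 that fell. It stood at 21.9, 18.7, 18.2, 24.1 and 20.8 CPM in KO_night, against 26.3, 29.7, 29.4, 23.9 and 26.9 CPM in WT_night (-0.39 ± 0.082, adjusted p = 0.0129). The groups overlapped through 1 library on each side, KO_night 4 and WT_night 4. Its partner in the tether, Cfap43, stood at a change of 0.010 ± 0.053 (adjusted p = 0.916), but Gsto1, which lies inside it on the other strand, stood at 56.7% of the Cfap43 level.

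Among 9 radial spoke genes, Cfap61, whose Chlamydomonas counterpart sits at the base of a radial spoke, fell (10.9 ± 1.25 CPM in KO_night, 13.1 ± 1.60 CPM in WT_night, -0.28 ± 0.081, adjusted p = 0.0305). The spoke head genes Rsph9 (0.11 ± 0.047, adjusted p = 0.132), Rsph4a (0.13 ± 0.080, adjusted p = 0.279) and Rsph1 (-0.064 ± 0.083, adjusted p = 0.639) did not pass. Rsph14 had the second highest level of the members at 73.9 CPM, but Gnaz, on the other strand inside it with no shared exon base, stood at 70.6 CPM, and its count was 93.5% to 97.9% of the Rsph14 count in every library. The difference between the 2 genes was 1.49 to 4.89 CPM per library, so the Rsph14 value is uncertain.

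None of 11 doublet wall genes and none of 5 assembly factors passed at night in edgeR or DESeq2. The doublet wall genes span 3.57 kb (Tekt2) to 128 kb (Cfap77), and the assembly factors 9.31 kb (Cfap298) to 36.3 kb (Dnaaf5). None of these 2 classes had an unadjusted p under 0.05 at night, against 6634 of the 22181 genes tested. Cfap20, at the inner junction of the doublet, stood at 27.6 ± 0.935 CPM in KO_night and 27.8 ± 1.56 CPM in WT_night, and the 95% interval of its log2 change ran from -0.10 to 0.080. Tekt1 stood at a change of 0.058 ± 0.094, and Tekt2, at 18 to 37 counts per library, at -0.35 ± 0.19 (adjusted p = 0.204). The assembly factors Cfap298 (0.11 ± 0.056), Cfap300 (-0.079 ± 0.057), Dnaaf5 (-0.032 ± 0.082), Dnaaf1 (0.12 ± 0.15) and Dnaaf3 (0.021 ± 0.26) stood on both sides of 0. For Dnaaf3, at 10 to 38 counts per library, the 95% interval ran from -0.49 to 0.53, and a smaller change was not detectable at this depth.

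The remaining 9 Cfap members held 3 calls, Cfap299 (-0.49 ± 0.11, adjusted p = 0.0178), Cfap70 (-0.35 ± 0.11, adjusted p = 0.0455) and Cfap97d2 (-0.35 ± 0.11, adjusted p = 0.0427). Cfap299 (ENSMUSG00000057816, chromosome 5, 98329304 to 98802047) had the lowest log2 change of all members, with 22.9, 14.3, 14.6, 21.9 and 15.8 CPM in KO_night against 20.8, 24.5, 27.5, 25.7 and 27.4 CPM in WT_night. The KO_night libraries fell into 3 at 14.3 to 15.8 CPM and 2 at 21.9 to 22.9 CPM, and the higher 2 reached the lowest WT_night library. Cfap36, the member with the highest level per kb of span (2.90 CPM per kb), stood at 74.6 ± 3.69 CPM in KO_night and 72.0 ± 1.956 CPM in WT_night (adjusted p = 0.432).

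**Figure D2:**
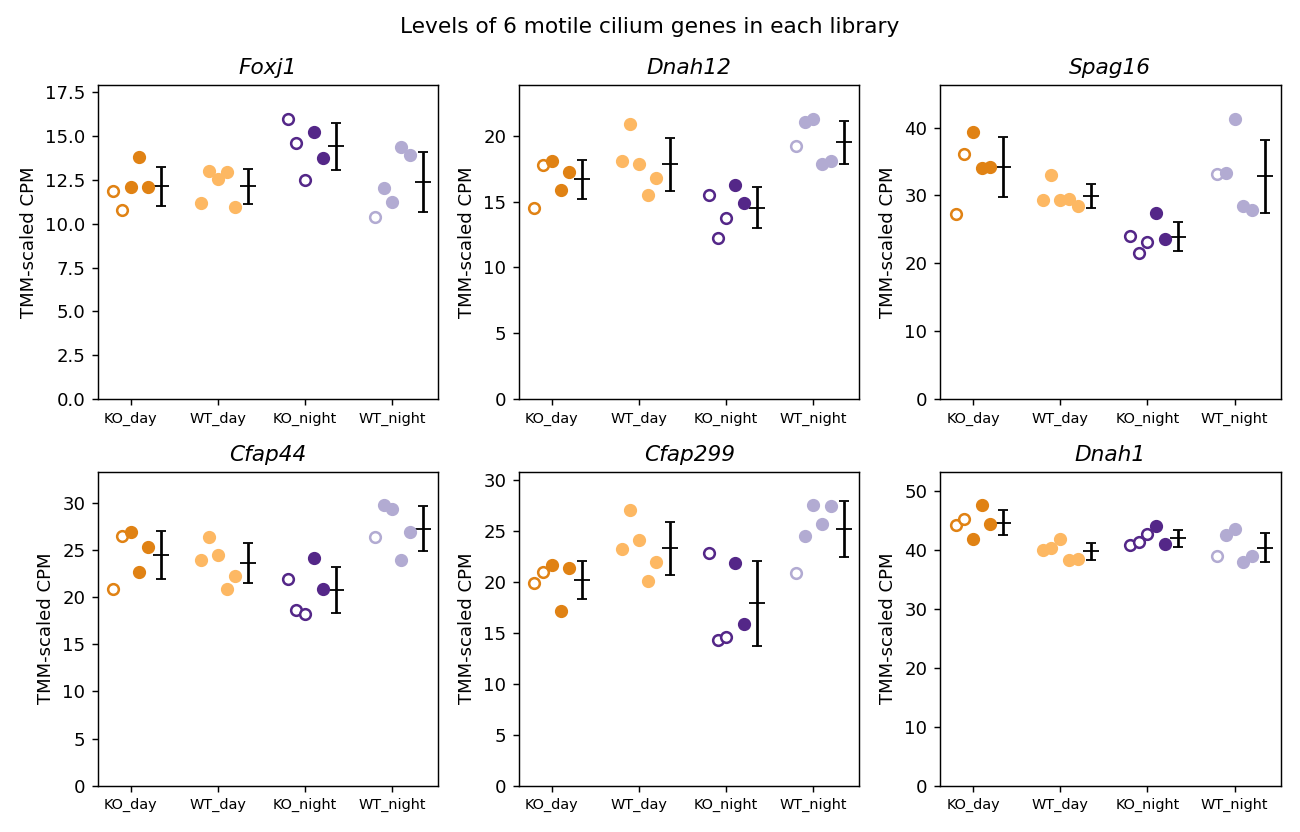
TMM-scaled CPM of Foxj1, Dnah12, Spag16, Cfap44, Cfap299 and Dnah1 in each of the 20 libraries, in the order KO_day, WT_day, KO_night, WT_night within each panel. Black bars give the mean and SD of 5 libraries, and open circles mark the 6 libraries whose time labels disagree. All KO_night libraries lie below all WT_night libraries for Dnah12 and Spag16, and the Foxj1 groups overlap.

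Over both times, 3 members fell in KO against WT (4.69%) and 0 rose, beside 1.32% of all genes called in either direction, 0.527% that fell and 0.793% that rose. They were Cfap299 (-0.35 ± 0.083, adjusted p = 0.0352), Dnah12 (-0.26 ± 0.058, adjusted p = 0.0314) and Dnah3 (-0.30 ± 0.063, adjusted p = 0.0234). Without the library labelled WT_day 3, which is part of this comparison, Dnah12 and Dnah3 still passed (adjusted p = 0.0461 and 0.0241). Cfap299 did not pass without it (adjusted p = 0.0528), and 0.867% of all genes were called. The members' median was -0.045, against -0.0013 for all genes.

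Between times, no member passed for WT_night against WT_day in edgeR or DESeq2. Of all genes, edgeR called 0.275% and DESeq2 1.84%. At an unadjusted p under 0.05 in edgeR this comparison held 6 of 64 members and 3533 of the 22181 genes tested. Central apparatus genes had a higher mean in WT_night than in WT_day in 9 of 9 cases. They had a lower mean in KO_night than in KO_day in 9 of 9. Inner-arm heavy chains had a higher mean in WT_night in 9 of 10 cases and a lower mean in KO_night in 10 of 10. Of the 14 members over 200 kb, 0 had a lower mean in WT_night and 14 had a lower mean in KO_night. The medians of all genes of that span were 0.098 in WT and -0.15 in KO. Of all genes tested, 48.6% had a lower mean in WT_night and 49.5% in KO_night. The lowest adjusted p of the WT comparison among members was that of Cfap54, with 42.6 ± 5.25 CPM in WT_night and 36.1 ± 2.72 CPM in WT_day (0.24 ± 0.090, adjusted p = 0.205). These 2 comparisons share their night libraries with the night comparison of the genotypes and are not independent of it.

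In 6 members (Dnah12, Dnah7a, Dnah7c, Spag16, Spag17 and Spag6l) all KO_night libraries lay below all WT_night libraries, which was so for 2.39% of all genes, and in 0 members they lay above, against 2.67% of all genes. By day the groups were apart for 1 member, Dnah3, lower in KO_day, against 1.24% of all genes, and in 0 members they were apart the other way, against 1.48%.

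The share of members that fell was larger among long genes, as it was over all genes tested. The long members are mostly intron, and exons make up 0.753% of the 898 kb of Spag16 and 0.306% of the 473 kb of Cfap299. These are the lowest shares of the members. In the dynein heavy chain genes the share runs from 3.30% (Dnah7c, 382 kb) to 20.5% (Dnah1, 63.5 kb). The counts appear to be taken over whole gene spans, so intronic reads weigh most in genes with a low exon share. Of 14 members over 200 kb, 9 fell in KO_night (64.3%), and of all 1070 genes of that span 48.9% fell. The 5 members of that class that did not pass were Dnah5, Dnah6, Dnah8, Dnah9 and Dnah14. In the 100 to 200 kb class 2 of 7 members fell (28.6%, all genes 19.4%), in the 30 to 100 kb class 6 of 23 (26.1%, all genes 6.97%), and up to 30 kb 0 of 20 (all genes 2.03%).

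The medians followed the same order. The median log2 change of members at night was -0.27 over 200 kb (all genes -0.24), -0.19 for 100 to 200 kb (all genes -0.12), -0.16 for 30 to 100 kb (all genes -0.040) and 0.054 up to 30 kb (all genes 0.059). By day the longest class stood at 0.063 for members and 0.0033 for all genes. With the trend of the log2 counts with gene length removed in each library, 3 members still fell at night, Cfap44 (-0.31, adjusted p = 0.0200), Cfap74 (-0.24, adjusted p = 0.0494) and Dnah12 (-0.26, adjusted p = 0.0257). The other 14 did not pass under that setting, with changes between -0.33 and -0.0017. Of all genes tested, 2.24% fell at night under it. Spag16 then stood at -0.13 (adjusted p = 0.209), Cfap299 at -0.25 (adjusted p = 0.139), Spag17 at -0.088 (adjusted p = 0.476), Cfap54 at -0.079 (adjusted p = 0.446) and Cfap61 at -0.071 (adjusted p = 0.543). Averaged over both times, Dnah3 (-0.23) and Dnah12 (-0.18) still fell under that setting, Cfap299 (-0.23, adjusted p = 0.0935) did not pass, and Dnah1 rose (0.13, adjusted p = 0.0278).

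**Figure D3:**
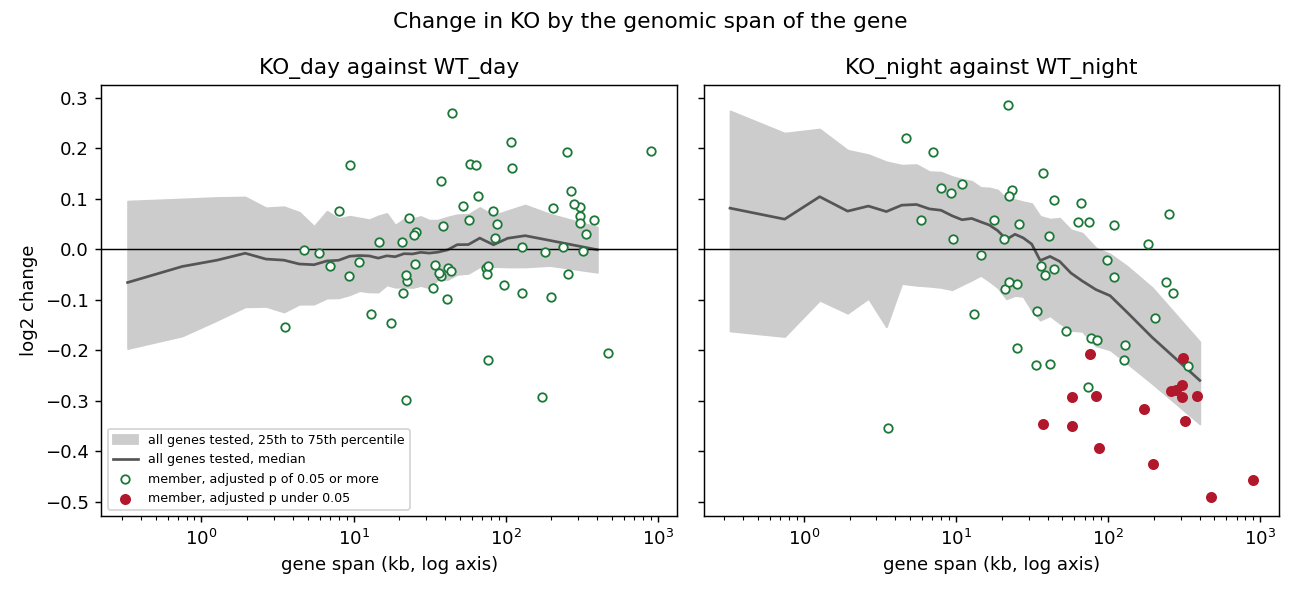
Log2 change in KO against WT by the genomic span of the gene (log axis, kb), by day on the left and at night on the right. Circles are the 64 members, red where the adjusted p was under 0.05, and the grey line and band are the median and the 25th to 75th percentile of all genes tested. At night both the members and the grey line go down with span, with member medians of 0.054 up to 30 kb and -0.27 over 200 kb.

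Single libraries carried unequal shares of the night difference. For each library the median over members of the log2 difference from the mean of the 20 libraries was taken (pseudocount 0.1 CPM). Over the 21 members longer than 100 kb it was -0.048, -0.26, -0.18, 0.028 and -0.15 in KO_night 1 to 5, against -0.0011, 0.20, 0.21, -0.015 and 0.022 in WT_night 1 to 5. KO_night 2, 3 and 5 stood lowest and WT_night 2 and 3 highest, while KO_night 4 stood above WT_night 1, 4 and 5. All 2701 tested genes longer than 100 kb gave -0.063, -0.18, -0.15, 0.0029 and -0.050 in KO_night and 0.11, 0.058, 0.23, -0.049 and 0.037 in WT_night. For the 20 members of up to 30 kb the values were 0.036, 0.00023, -0.038, 0.090 and 0.0020 in KO_night and -0.054, -0.065, -0.022, 0.015 and -0.013 in WT_night.

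**Figure D4:**
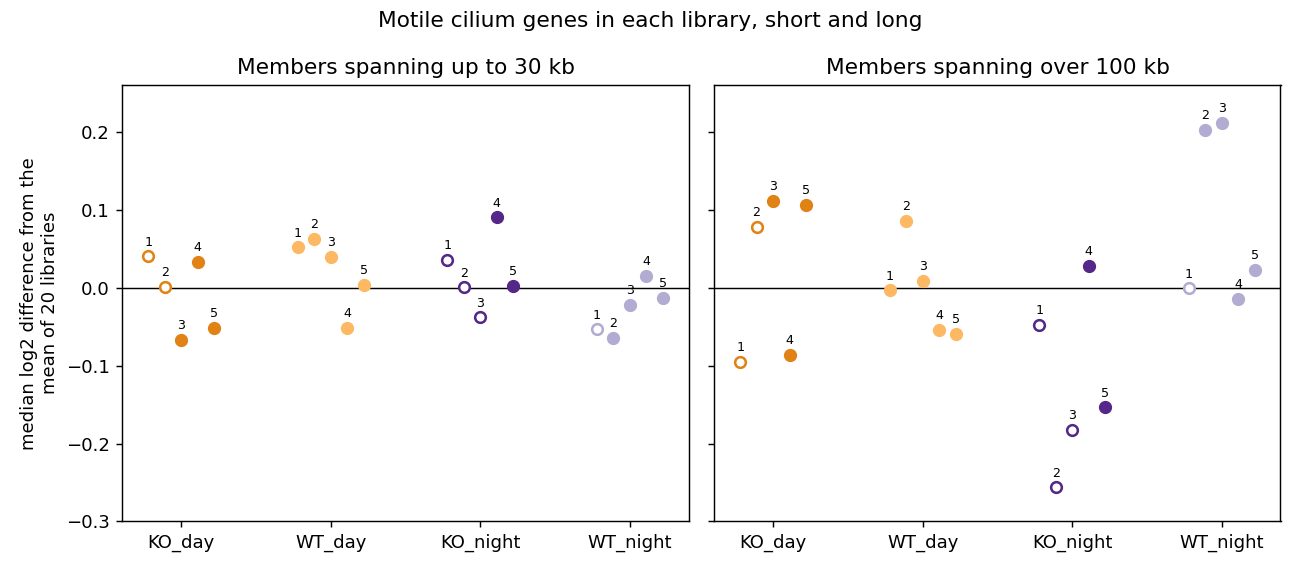
Median log2 difference from the mean of the 20 libraries over the 20 members of up to 30 kb (left) and the 21 members over 100 kb (right), 1 point per library with its number. Open circles mark libraries whose time labels disagree. Long members lie at -0.26 to 0.028 in KO_night and at -0.015 to 0.21 in WT_night, and short members lie between -0.067 and 0.090 in all libraries.

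The night result depends on which libraries are called night. With groups taken from the time field 0 of 64 members passed at night in edgeR, and with the libraries whose time labels agree alone 0 passed, while 4 and 6 genes of the whole table were called. The members' median was -0.046 with the time field and -0.067 with the agreeing libraries. The agreeing set keeps only KO_night 4 and 5 against WT_night 2 to 5 at night. A loss of calls there through fewer libraries and one through the labels cannot be told apart. The 17 members called in all libraries had log2 changes from -0.48 (Cfap299) to -0.11 (Cfap46) in that set. The averaged effect and KO_night against KO_day, too, called 0 members under either setting. Of all genes, the averaged effect called 0.134% with the time field and 0.254% with the agreeing libraries. KO_night against KO_day called 0% and 0.0482%. The 3 comparisons with 0 calls stayed at 0, where at most 0.665% of all genes were called (by day, with the time field). Leaving out 1 library changed the calls of members and of all genes, whose share is given in brackets. It left 2 members without WT_night 3 (0.546%), 3 without KO_night 2 (1.32%) and 5 without WT_night 1 (1.28%). A further 6 were left without KO_night 3 (2.29%) and 8 without WT_night 2 (8.25%). It left 22 without KO_night 4 and 16 without the library labelled WT_day 3.

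**Figure D5:**
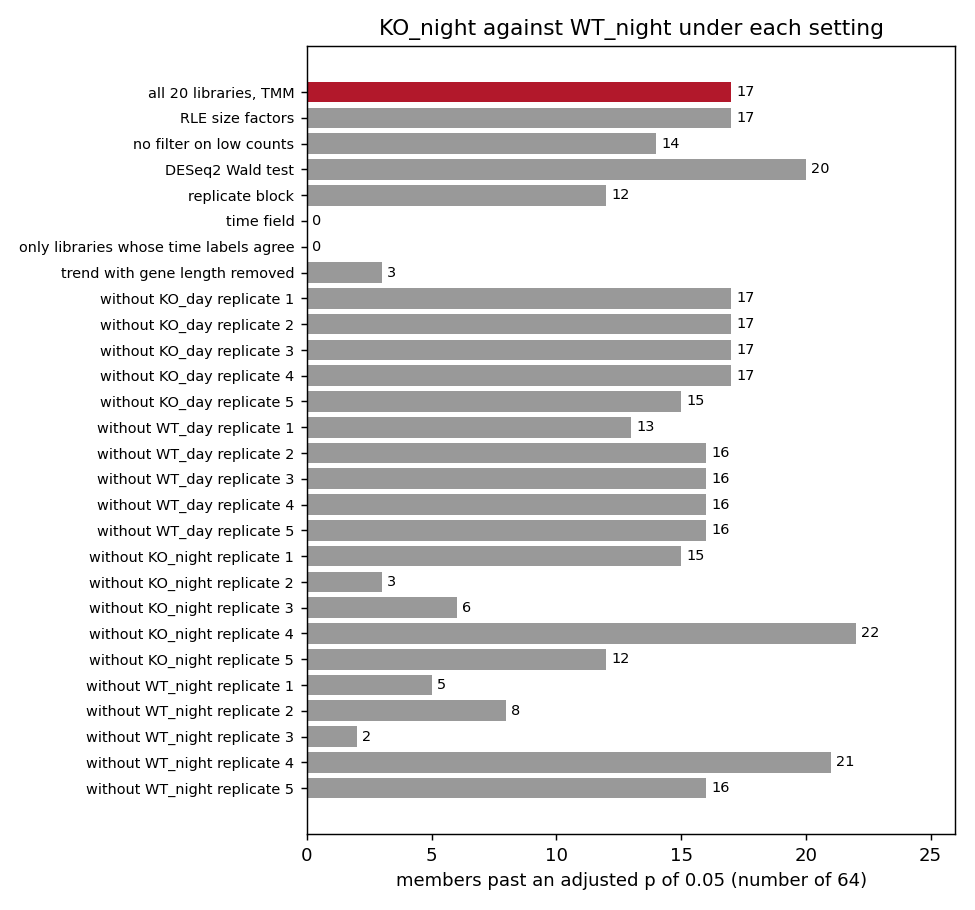
Number of the 64 members past an adjusted p of 0.05 in KO_night against WT_night under each setting. The red bar is the fit to all 20 libraries (17 members), and the grey bars run from 0, with the time field or only agreeing labels, to 22, without KO_night 4. Over these settings the share of all genes called ran from 0.0179% (time field) to 19.5% (without WT_night 4).

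Genes that work with the members moved in part at night, where 6.77% of all genes tested fell and 5.18% rose. In the 7 lists that follow, 17 genes passed at night, 4 of them also with the length trend removed (Fbxl13, Ccdc114, Dnal4 and Lrrc6), and 0 with the time field or with the agreeing libraries alone. Of 20 further central apparatus and axoneme genes, 4 fell and 0 rose, among them Hydin (-0.37), Spef2 (-0.27) and Lrguk (-0.27). All 4 span over 100 kb, where 48.9% of genes over 200 kb and 19.4% of genes from 100 to 200 kb fell. Hydin, a giant central apparatus protein, stood at 10.9 ± 1.76 CPM in KO_night and 14.03 ± 1.90 CPM in WT_night (adjusted p = 0.0300). Of 9 tested genes of the nexin-dynein regulatory complex and the axonemal ruler, Fbxl13 fell, with 4.17 ± 0.371 CPM in KO_night and 6.03 ± 0.898 CPM in WT_night (-0.53 ± 0.092, adjusted p = 0.00562).

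Of 13 tested dynein arm chains and docking genes outside the group, 3 fell and 2 rose. The genes that fell were the docking complex genes Ccdc114 (-0.47) and Armc4 (-0.42) and also Efcab1 (-0.21), and the genes that rose were the arm chains Dnaic2 (0.33) and Dnal4 (0.22). Of 7 tested preassembly factors, Lrrc6 fell (-0.34) and Pih1d1 rose (0.20). Intraflagellar transport, which carries cargo along all cilia, had 1 of 30 genes that fell, the retrograde motor Dync2h1 (-0.18), a share of 3.33% and below that of all genes, and the BBSome had 2 of 9, Bbs9 (-0.26) and Ttc8 (-0.24).

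Upstream of the group, 2 of 16 tested multiciliation regulators fell, Rfx4 (20.6 ± 1.44 CPM in KO_night, 24.7 ± 2.45 CPM in WT_night, -0.27 ± 0.069, adjusted p = 0.0230) and Rfx3 (160 ± 14.3 CPM in KO_night, 184 ± 13.3 CPM in WT_night, -0.20 ± 0.067, adjusted p = 0.0487). Both encode X-box binding factors that other hypothalamic cells also express, and their genes span 150 kb and 249.4 kb. With the length trend removed neither passed, with Rfx4 at -0.12 (adjusted p = 0.183) and Rfx3 at -0.014 (adjusted p = 0.887). Averaged over both times, none of the 104 tested genes of these 7 lists passed in edgeR. At an unadjusted p under 0.05 there were 24 of them, against 4353 of the 22181 genes tested. DESeq2 called 6 of them, and 4.61% of all genes. List genes with the lowest p included Dync2h1 (-0.12, adjusted p = 0.0671), Bbs5 (-0.12, adjusted p = 0.0765) and Fbxl13 (-0.22, adjusted p = 0.0789).

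The ependyma markers did not move one way at night, where 6.77% of all genes tested fell, 5.18% rose and 49.0% had a lower mean in KO_night. Of 11 tested, Pifo (-0.38, 4.35 ± 0.243 CPM in KO_night and 5.68 ± 0.839 CPM in WT_night) and Tmem212 (-0.31) fell, and Tppp3 (0.19, 73.1 ± 3.73 CPM in KO_night and 64.1 ± 5.36 CPM in WT_night) rose. Of the 11, 7 had a higher mean in KO_night, with a median log2 change of 0.094. Of 11 tested choroid plexus markers Kcnj13 fell (-0.57), and 9 had a lower mean in KO_night, with a median of -0.16, against -0.083 for the members. All 8 oligodendrocyte markers had a higher mean in KO_night, with a median of 0.20, and they summed to 2179 to 2928 CPM in KO_night and 2015 to 2490 CPM in WT_night. All 8 astrocyte markers had a higher mean in KO_night as well, with a median of 0.097. Calls among the markers of other cells were 3 rises of 8 for oligodendrocytes, 1 rise each for tanycytes, astrocytes and neurons, 1 fall for microglia, and 0 calls in edgeR or DESeq2 for endothelium (2 of 5 at an unadjusted p under 0.05) and pituitary (0 of 7). That unadjusted threshold was passed by 6634 of the 22181 genes tested. With the time field or with the agreeing libraries alone, no marker list held a call at night. The choroid plexus median was 0.0069 with the time field and -0.25 with the agreeing libraries. For ependyma these medians were 0.017 and -0.045, for oligodendrocytes 0.096 and 0.17, and for astrocytes 0.051 and 0.089. The part of these markers in the members' changes was not tested.

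The spread within groups sets how small a change could pass. The within-group coefficient of variation, averaged over the 4 groups, had a median of 10.3% over members (3.25% for Rsph14 to 26.8% for Dnaaf3), against 8.24% over the 19114 tested genes at the lowest member's level or above. In 30 of 64 members another counted gene overlaps the span at 5% or more of the member's level, and these values are uncertain because the counts are not separated by strand. Of the 17 members that fell at night, 11 have no such neighbour. The 6 that do are Cfap61, Spag17, Cfap74, Cfap299, Dnah3 and Dnah11, whose neighbours other than Lyrm1 did not pass at night.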

How the data were processed

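Ribosomal RNA was depleted from total hypothalamic RNA, and paired-end libraries were sequenced, per the labels. The authors deposited raw counts per gene, aligned with HISAT2 to mm10 and counted with featureCounts, per the submitters' processing notes; versions and the annotation are not given in the sources used here. One deposited count table (WT_night 3) is tab-separated and has no header.

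Of 53801 genes, 53706 matched GENCODE M21 (GRCm38). Protein-coding genes nested in another gene had 0 counts in 99.8% of 420 cases where both share a strand. Where they do not, 5.2% of 803 cases had 0 counts. Counts over whole spans would look like this if the counting itself used strand. Whether the libraries kept the strand of the RNA was not tested. Time was taken from the title, and for KO_day 5, whose title gives none, from the time field. WT_day 5 repeats another title's number and was given the free one. Tests used edgeR 4.0.16 in R 4.3.3: quasi-likelihood F-test, TMM factors of 0.945 to 1.08, filterByExpr with a minimum count of 10, 1 fit of 4 group means, Benjamini-Hochberg adjustment over 22181 genes. Standard errors are |log2 change| over the square root of F, and intervals are 1.96 standard errors. The fit was tested on simulated data. Alternatives were DESeq2 1.42.0, RLE factors, no filter, a replicate block, the time field, agreeing labels, a length correction (in each library a lowess of the log2 CPM deviations on log2 span, smoothing span 0.3, prior count 2, given to edgeR as offsets) and each library left out. The 40 library pairs within groups differed by more than counting error (chi-square per degree of freedom of 5.58 to 53.7).

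Members and lists were chosen with earlier results of these data known. Named genes are Foxj1, the Spag members, the highest 2 of each family per kb, all members past the threshold, the 3 lowest p-values per comparison, and of each pathway list the genes past the threshold and the 2 lowest p-values for the averaged effect. Members outside this rule are named to account for their class. One pathway gene that the rule picks is not reported here.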

Additional observations from a re-analysis of the deposited data

Results flagged for a closer look

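Among the named genes, 9 of 204 groups of 5 libraries held 1 library whose gap to the nearest other exceeded 0.71 of the group's range, where chance gives about 1 in 20. In WT_day 2, Spag16 stood at 32.99 CPM (others 28.5 to 29.4), Dnah3 at 14.3 CPM (others 10.3 to 11.4), Spag6l at 17.6 CPM (others 14.6 to 15.2) and Rfx4 at 25.5 CPM (others 20.6 to 21.8). Cfap46 stood at 26.5 CPM in WT_day 5 (others 25.01 to 25.2). Dnaaf5 stood at 13.1 CPM in KO_night 4 (others 9.51 to 10.2). Of the pathway genes, Ccdc39 stood at 33.9 CPM in KO_day 1 (others 38.0 to 39.1), Fbxl13 at 6.17 CPM in KO_day 5 (others 5.40 to 5.59) and Efcab1 at 53.4 CPM in WT_night 4 (others 57.6 to 59.2).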

How the results depend on the processing

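Of the members called at night (17), 0 passed with the time field or with only agreeing labels. With the length trend removed 3 passed (5.32% of all genes called). RLE factors gave 17 (11.8%), no filter 14 (5.77%) and DESeq2 20. Averaged calls (3) were 0 with the time field, 0 with agreeing labels and 5 in DESeq2. Calls by day (0) were 1 in DESeq2. Calls for KO_night against KO_day (1) were 0 with the time field, 0 with agreeing labels and 5 in DESeq2, and the median (-0.072) was 0.033 with the time field. Interaction calls (0) were 1 without the filter (Spag16) and 9 in DESeq2, and the median (-0.12) was -0.025 with the time field and -0.038 with the length trend removed. Of all genes, DESeq2 called 15.7% at night, 4.61% averaged, 0.830% by day, 2.48% for KO_night against KO_day and 5.36% for the interaction. In edgeR these shares were 11.9%, 1.32%, 0.113%, 0.0721% and 0%. Leaving out 1 library gave 2 to 22 calls at night, 0 to 4 averaged, 0 to 4 for KO_night against KO_day and 0 to 11 for the interaction, and 0 throughout for the day comparison and WT_night against WT_day. Of all genes, 0.546% to 19.5% were then called at night and 0.210% to 5.65% averaged. KO_night against KO_day then called 0% to 1.47% of all genes and the interaction 0% to 6.95%. The medians of the members then ran from -0.13 to -0.065 at night, -0.083 to -0.029 averaged, -0.011 to 0.037 by day, 0.038 to 0.066 for WT_night against WT_day, -0.12 to -0.060 for KO_night against KO_day and -0.16 to -0.082 for the interaction.

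With a replicate block, 12 members passed at night (7.62% of all genes called) and 2 averaged (0.978%). Same-numbered libraries correlated at -0.167 to 0.303 over 30 pairs (3 over 0.1), and 4 of 20 libraries correlated best with their own number, so the numbers were not taken as pairs. Of the named genes' values under all alternatives, 1609 kept direction and side of the threshold, 313 lost the threshold with the same direction, 37 gained it and 12 changed sign. A call changed sign for Dync2h1 at night alone, with the length trend removed (0.014, adjusted p = 0.865). The other 11 were not past the threshold. With the time field they were, at night, Cfap20 (0.033), Dnaaf1 (-0.0041), Dnaaf5 (0.035), Foxj1 (-0.0027) and Rsph14 (-0.0094), by day Spag16 (-0.048), and Dnah7b for KO_night against KO_day (0.041) and for the interaction (0.0065). With agreeing labels it was Dnaaf5 at night (0.13). With 1 library left out, Dnaaf5 at night ran from -0.12 to 0.0015 (without KO_night 3) and Cfap20 from -0.050 to 0.0042 (without WT_night 3). Causes were not tested. At 10 to 38 counts per library, depth limits Dnaaf3 and Tekt2 most.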
